A study of Homo sapiens with 6 samples.

Results

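RASSF1, RARB, GSTP1, ESR1, PGR, CCND2, SYK, HIC1, RUNX3 and CDH13 are 10 genes whose promoters are known to be methylated in breast cancer. They were chosen by name for that knowledge, by a rule that uses no value of these data although earlier results of the data were known, and all 10 were found among the 23617 gene symbols of the MDA-MB-231 table. The study asked how the inhibition of DNA methylation changes gene expression in 2 breast cancer cell models. RNA-seq was performed on 6 libraries of polyadenylated RNA. Treated cells received 5-aza-2′-deoxycytidine (decitabine, DAC) at 10 µM every day and were collected 72 h after the first dose, and untreated cells were the controls. MDA-MB-231, a line derived from a human breast cancer, gave 1 DAC and 1 untreated library, and HMLER, human mammary epithelial cells transformed in vitro, gave 2 DAC and 2 untreated libraries that the authors merged into 1 value per condition. Several RNA extractions of 1 line were pooled for each library, so the spread between cultures cannot be seen. With 1 value per condition in each line, the comparisons below are between libraries, without replicates and without p-values. For the untreated MDA-MB-231 library, the cell line field carries a different number from the title, and the title was followed.

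In normal cells most CpG islands, the CG-dense stretches at the start of many genes, carry little methylation. In tumours a subset of these islands becomes methylated, and transcription from the promoter is then low or absent. DAC is a cytidine analogue that is built into DNA during replication and traps DNA methyltransferases, so methylation is lost as cells divide. Methylation itself was not measured in these libraries.

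Of the 10 genes, CDH13 alone was more than 2-fold higher after DAC among those that reached 1 FPKM (fragments per kilobase of transcript, scaled to the size of the library) in at least 1 MDA-MB-231 library, at 0.331 FPKM in untreated cells and 4.60 FPKM after DAC. In bulk RNA, more cells that express a gene and more of its RNA per cell cannot be told apart. GSTP1, HIC1, RASSF1 and RARB were already expressed in untreated cells, at between 1.35 and 394.1 FPKM, and none of these 4 changed by more than 2-fold. ESR1, PGR, SYK and RUNX3 were listed at 0 in the untreated library and stayed at 0.103 FPKM or less after DAC. CCND2 went from 0.226 to 0.583 FPKM. HIC1 was the one gene of the 10 that was listed for HMLER, where it was 9.47-fold higher after DAC.

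In all, 5 of the 10 genes reached 1 FPKM, of which 1 was higher and 0 were lower after DAC by more than 2-fold. Among the 12525 symbols that reached 1 FPKM, 1350 (10.8%) were higher and 604 (4.82%) were lower. CDH13 passed the 1 FPKM filter only through its DAC value, so it could be called higher but not lower. Of the 4 genes at 1 FPKM or more in untreated cells, 0 were higher, and 4.29% of the 11516 such symbols were. The median log2 change of the 10 genes, with 1 FPKM added to each value, was 0.08, beside 0 for all 23617 symbols, and that of the 5 genes that reached 1 FPKM was also 0.08, beside -0.08 for the 12525 such symbols.

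**Figure D1:**
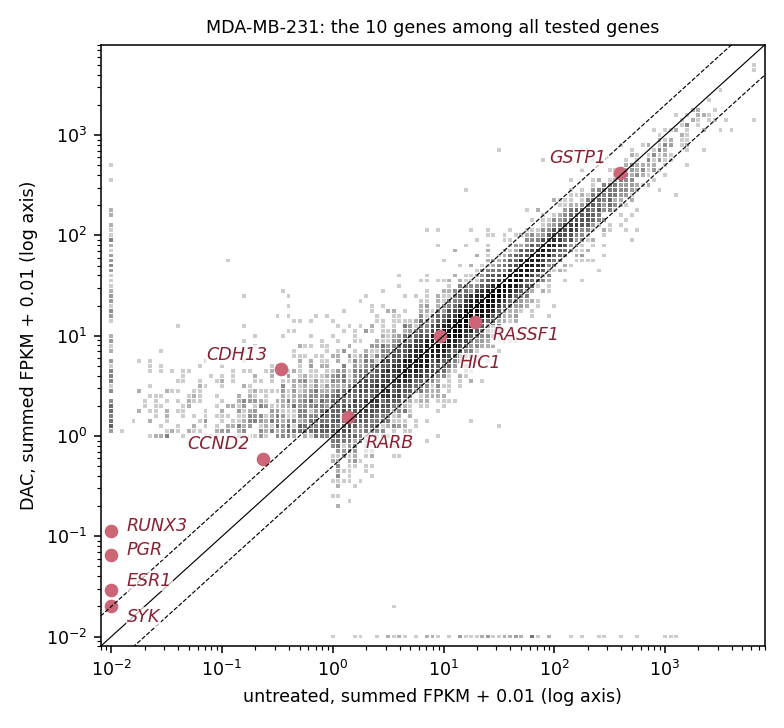
Summed FPKM of each gene in untreated (x axis) and DAC-treated (y axis) MDA-MB-231 cells, both log axes with 0.01 FPKM added, for the 10 genes (red) over the symbols that reached 1 FPKM (grey, darker where more symbols fall), with equality (solid) and 2-fold (dashed) lines. GSTP1, RASSF1, HIC1 and RARB lie between the 2-fold lines, CDH13 and CCND2 lie above them, and RUNX3, PGR, ESR1 and SYK stand at 0 in untreated cells.

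The promoters differ in how many CpG sites they hold, and 5 windows are printed here because the transcripts described below start at them or at an alternative to them. Each runs from 250 bases before to 50 bases after a RefSeq transcript start (GRCh38.p14), 5′ to 3′ on the strand of the gene. Capitals mark CpG sites in the first 4 windows. In the RARB window they mark the retinoic acid response element instead.
RUNX3, distal start, chr1:24964961-24965260, minus strand: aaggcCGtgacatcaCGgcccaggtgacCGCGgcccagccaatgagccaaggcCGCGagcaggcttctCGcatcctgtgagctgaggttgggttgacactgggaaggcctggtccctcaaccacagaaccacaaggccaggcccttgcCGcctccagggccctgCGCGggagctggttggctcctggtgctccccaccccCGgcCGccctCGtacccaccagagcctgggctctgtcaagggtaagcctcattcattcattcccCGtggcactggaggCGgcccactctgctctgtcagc
RUNX3, proximal start, chr1:24930227-24930526, minus strand: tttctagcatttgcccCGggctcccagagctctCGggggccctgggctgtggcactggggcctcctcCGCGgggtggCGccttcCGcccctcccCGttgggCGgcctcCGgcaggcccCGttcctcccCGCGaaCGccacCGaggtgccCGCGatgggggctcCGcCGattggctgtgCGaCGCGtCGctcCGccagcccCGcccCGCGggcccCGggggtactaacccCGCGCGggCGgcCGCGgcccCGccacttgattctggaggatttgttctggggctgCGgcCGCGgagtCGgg
GSTP1, chr11:67583562-67583861, plus strand: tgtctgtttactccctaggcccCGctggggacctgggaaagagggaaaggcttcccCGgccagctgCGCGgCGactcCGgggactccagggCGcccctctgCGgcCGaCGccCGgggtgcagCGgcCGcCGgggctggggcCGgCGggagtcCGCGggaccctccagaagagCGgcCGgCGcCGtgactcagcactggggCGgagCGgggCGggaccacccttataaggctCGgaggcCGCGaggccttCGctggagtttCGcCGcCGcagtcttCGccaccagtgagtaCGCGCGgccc
RASSF1, downstream start, chr3:50337401-50337700, minus strand: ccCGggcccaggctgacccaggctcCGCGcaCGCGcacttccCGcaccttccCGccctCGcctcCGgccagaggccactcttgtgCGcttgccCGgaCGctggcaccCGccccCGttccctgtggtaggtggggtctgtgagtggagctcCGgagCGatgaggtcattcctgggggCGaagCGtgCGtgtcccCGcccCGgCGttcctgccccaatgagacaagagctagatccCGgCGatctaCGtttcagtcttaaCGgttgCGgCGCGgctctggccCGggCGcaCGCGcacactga
RARB, internal start, chr3:25428013-25428312, plus strand: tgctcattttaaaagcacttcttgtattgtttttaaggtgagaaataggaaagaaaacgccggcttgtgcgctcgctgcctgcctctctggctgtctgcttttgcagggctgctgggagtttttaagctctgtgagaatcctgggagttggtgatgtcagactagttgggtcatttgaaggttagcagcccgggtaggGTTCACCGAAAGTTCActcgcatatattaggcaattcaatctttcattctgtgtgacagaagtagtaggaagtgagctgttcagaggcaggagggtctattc

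The distal RUNX3 window held 15 CpG sites and the proximal one 38, and their starts lie 34734 bases apart. The GSTP1 window held 36 and the RASSF1 window 33, against a median of 14 over all 35116 windows of the table. The internal RARB window held 7 CpG sites, and 33 lay in the window of the upstream RARB start (chr3:24829071-24829370). Its element is a direct repeat of GTTCA with 6 bases between the 5-letter copies, searched on both strands. The same repeat was found in 20 of the 35116 windows (0.0570%). The 1 match among the 20 windows of these genes is this RARB element itself, so it is not to be set against that share. Such a match describes letters and not a bound factor.

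Windows were found for 7 of the 10 genes, and CCND2, HIC1 and CDH13 had no entry. The 3 PGR windows held 7, 15 and 17 CpG sites, and the 6 ESR1 windows held 4 to 17. The window with the most CpG sites belonged to SYK (chr9:90801569-90801868), with 40. A window was called CpG-rich where its CpG count was at least 0.6 of that expected from its bases and its GC content was 50% or more. Under that measure 6 of the 20 windows were rich, beside 46.9% of all windows. The GC box GGGCGG, on either strand, was in 11 of the 20 and in 15786 of all 35116.

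**Figure D2:**
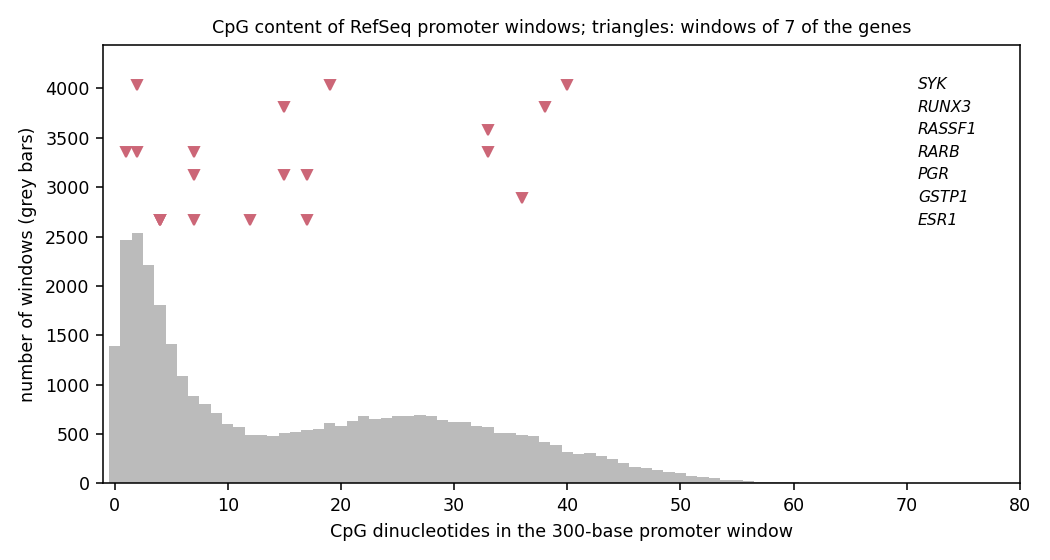
Number of RefSeq promoter windows (y axis, grey bars) by CpG dinucleotides in the 300-base window (x axis), with a row of red triangles for each of the 7 genes with an entry, 1 triangle per transcript start (3 of the ESR1 triangles coincide at 4), placed by CpG count only. SYK, RUNX3, GSTP1, RASSF1 and RARB each have a start with 33 CpG sites or more, and no ESR1 or PGR window exceeds 17.

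The values in MDA-MB-231 could be read back as whole reads, since low FPKM values fell on multiples of what 1 read is worth in each library. The reads below are inferred in this way for the whole gene, and their 95% intervals (exact, from the binomial split of the reads between the 2 libraries) cover counting error only. Per library, 1 read was worth 0.0235 FPKM on a kilobase of usable transcript in untreated cells and 0.0236 after DAC, so the deposited scale treats the libraries as near equal. The reads inferred on transcripts over 600 bases summed to 42407145 untreated and 34636995 after DAC. The 11292 symbols that reached 1 FPKM in each library had a median ratio of 0.912, or -0.13 on the log2 scale, and each ratio is therefore also given divided by that median and per total inferred read. Scaled per total read, 1802 symbols were higher and 336 lower, against 1350 and 604 as deposited.

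**Figure D3:**
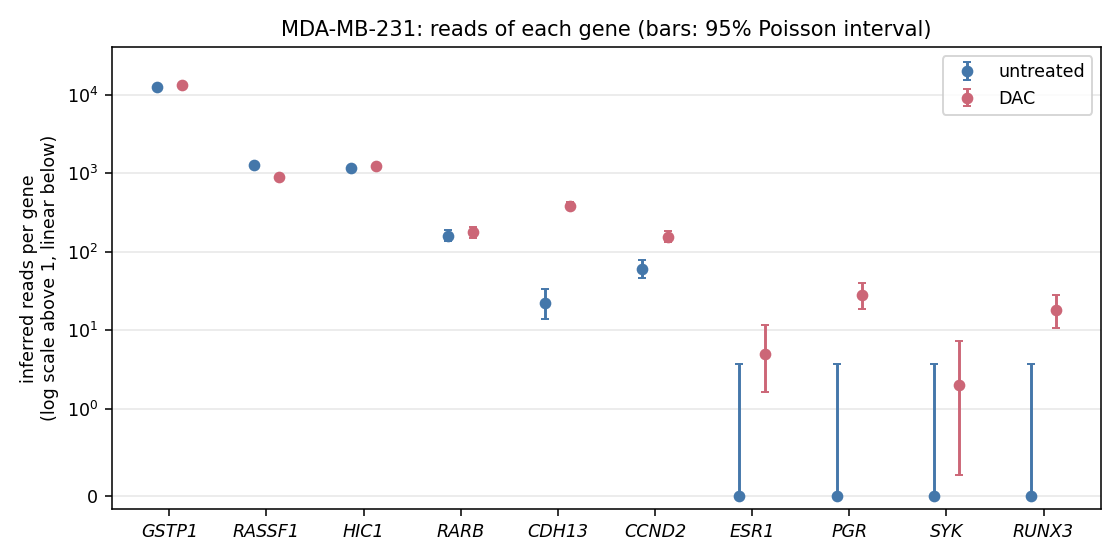
Inferred reads of each of the 10 genes in the untreated (blue) and DAC-treated (red) MDA-MB-231 libraries, 1 library each, on an axis that is logarithmic above 1 read and linear below, with exact 95% Poisson intervals as bars. GSTP1 has 12666 and 13328 reads, whereas ESR1, PGR, SYK and RUNX3 have 0 in untreated cells and 2 to 28 after DAC.

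Among the tumour suppressors, RASSF1 is a scaffold protein that joins RAS-family signalling to the MST kinases and to microtubules. It lies on chr3:50367213-50378411 (GRCh37, minus strand). Its summed level was 19.2 FPKM without DAC and 13.6 FPKM with it, on 1264 and 886 reads. The DAC library was thus the lower, with a ratio of 0.705 (0.647 to 0.769). The ratio was 0.773 (0.709 to 0.843) over the median gene and 0.858 (0.787 to 0.936) per total read, so it was under 1 on each scale. RASSF1 was the single gene of the 10 with an interval wholly under 1.

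The RASSF1 locus has more than a single promoter. Variant A (NM_007182) starts at the upstream CpG island, which is the one known for methylation in breast tumours, and variant C (NM_170713) starts inside the gene. The printed RASSF1 window lies at this inner start, 3386 bases from the 5′ end of the RefSeq gene. Variant A was listed at 0 FPKM in both libraries, with an upper bound from the authors' software of 0.0270 FPKM in each. Variants D (NM_170714) and H (NM_001206957) were also at 0 in both. No return of variant A was detectable at this depth.

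The reads of RASSF1 went to variant C and to variant B (NM_170712). Variant C was at 18.5 FPKM (bounds 8.40 to 28.6) without DAC and 11.3 FPKM (3.75 to 18.9) with it, taking 96.7% and 83.8% of the gene's reads. Variant B was at 0.678 FPKM (0 to 2.67) and 2.34 FPKM (0 to 6.33), or 42.1 and 143.9 assigned reads. Both pairs of bounds overlapped, so a difference between the libraries in the use of these transcripts lay within the uncertainty of the assignment. An antisense RNA, RASSF1-AS1, shares 659 exon bases with RASSF1, and the library kit does not mark strand, so its reads cannot be told apart there.

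HIC1, a zinc-finger repressor of transcription, lies on chr17:1957448-1966535 (plus strand). In MDA-MB-231 it was at 9.35 FPKM untreated and 9.82 FPKM after DAC, from 1177 and 1228 reads. The ratio was 1.05 (0.969 to 1.14), an interval that spans 1. It was 1.15 (1.06 to 1.25) over the median gene and 1.28 (1.18 to 1.38) per total read, where it no longer spans 1. Nearly all reads were assigned to NM_006497, whose bounds of 4.18 to 14.5 and 4.46 to 15.2 FPKM overlapped.

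In HMLER, NM_006497 was at 0.555 FPKM without DAC and 5.25 FPKM with it. That 9.47-fold ratio was exceeded by 354 of the 1854 symbols listed for HMLER (19.1%). The same transcript of HIC1 was thus higher after DAC in HMLER, whereas its ratio in MDA-MB-231 lay close to 1. The difference between the lines has no replicate check, and the tables were normalised separately, so the levels of the lines stand side by side only. HIC1 shares 2419 exon bases with SMG6 on the opposite strand, a gene that was at 64.8 and 38.6 FPKM in MDA-MB-231, and the part of SMG6 reads in the HIC1 values was not tested.

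The HMLER table lists 2009 transcripts, each at more than 2-fold higher after DAC and the lowest at 1.003 FPKM in that condition. It listed 1853 of the 23617 symbols (7.85%) and 1 of the 10 genes. The other 9 genes have no HMLER value here, and whether they were low, near equal or lower in that line cannot be told apart. No gene of the 10 was called higher in both lines, a count for which no share of all symbols is given.

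RUNX3 is a DNA-binding factor of the RUNX family with a distal and a proximal promoter, on chr1:25226002-25291612 (minus strand). It had 0 reads in untreated and 18 reads in DAC-treated MDA-MB-231 cells, or 0 and 0.103 FPKM. Against a floor of 3 reads in the untreated library, it was 6.04-fold higher after DAC, a value without counting error. The counting interval of the ratio began at 4.42, or 4.85 over the median gene and 5.38 per total read. Of these reads, 99.99% were assigned to NM_001031680, the transcript of the distal start. NM_004350, of the proximal start, was at 5.54e-06 FPKM. This split is the assignment by the authors' software, and no read position at either start was measured. The bounds after DAC, 0 to 0.287 FPKM for the distal and 0 to 0.0116 FPKM for the proximal transcript, overlapped and included 0.

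SYK, a non-receptor tyrosine kinase known from immune-receptor signalling, lies on chr9:93564069-93660831 (plus strand). It had 0 reads untreated and 2 after DAC, at or under the floor of 3 reads in both, so no fold is given. A change in SYK was not detectable at this depth.

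Among the hormone receptors, ESR1 (oestrogen receptor alpha, chr6:151977826-152450754, plus strand) and PGR (progesterone receptor, chr11:100900355-101000544, minus strand) are the receptors that define the luminal type of breast cancer. MDA-MB-231 is known to lack both, and both were at 0 reads in the untreated library. After DAC, ESR1 had 5 reads (0.0193 FPKM) and was 1.68-fold higher against the floor, with a counting interval that began at 0.922. PGR had 28 reads (0.0555 FPKM), 9.39-fold higher against the floor, with an interval that began at 7.15. For ESR1 the libraries thus did not differ beyond counting error on the deposited scale. Its interval began at 1.01 over the median gene and at 1.12 per total read, so the reading of these few reads depends on the scale. The interval of PGR began at 7.83 over the median gene and at 8.69 per total read, although its level was very low.

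The transcripts behind these reads differ in kind. For PGR, 27.9 of the 28 reads were assigned to NR_073142, a noncoding form, and NM_000926, the main coding transcript, was at 0 FPKM in both libraries. For ESR1, 3.87 reads were assigned to NM_001122741 and 1.02 to NM_000125. PGR shares 737 exon bases with the antisense gene PGR-AS1, and the RefSeq antisense transcript NR_073144 was at 0 FPKM in both libraries. ESR1 shares 135 exon bases with a noncoding gene on the same strand.

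Reads in a gene that was at 0 before are frequent in the DAC library at large. Of the 5149 symbols with 0 reads in untreated cells, 1288 (25%) had 2 reads or more after DAC, and all 4 of the silent genes described here did. As many as the 28 reads of PGR were seen in 154 of the 5149 (2.99%). As many as the 18 of RUNX3 were seen in 248 (4.82%), and as many as the 5 of ESR1 in 699 (13.6%). In the other direction, of the 3516 symbols of the same set at 0 after DAC, 80 (2.28%) had 2 reads or more in untreated cells. PGR, RUNX3 and ESR1 have long transcripts, and a long transcript gathers more reads at the same level.

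RARB, retinoic acid receptor beta, is a ligand-activated receptor that retinoic acid itself induces through the element printed above. It lies on chr3:24729378-25639423 (plus strand). Its level was 1.35 FPKM untreated and 1.52 FPKM after DAC, from 161 and 176 reads. The ratio of 1.10 had an interval of 0.883 to 1.37, so the libraries did not differ beyond counting error. It was 1.21 (0.968 to 1.503) over the median gene and 1.34 (1.07 to 1.67) per total read, where the interval lies above 1. NM_000965 was at 1.07 and 0.860 FPKM and NM_016152 at 0.285 and 0.664 FPKM, each with bounds that begin at 0.

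GSTP1, a glutathione transferase that conjugates electrophiles and drugs, lies on chr11:67351213-67354127 (plus strand). It was by far the most abundant of the 10 genes, at 394.1 FPKM untreated and 417.3 FPKM after DAC. These levels stood at the 99.1 and 99.4 percentiles of all symbols. The 12666 and 13328 reads gave a ratio of 1.06 (1.03 to 1.09), which was 1.16 (1.13 to 1.19) over the median gene and 1.29 (1.26 to 1.32) per total read. The interval is narrow because the reads are many, and it does not hold the spread between cultures. The bounds of its single transcript, 206 to 582 and 219 to 616 FPKM, overlapped almost wholly.

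CCND2, cyclin D2, a partner of CDK4 and CDK6 at entry into the cell cycle, lies on chr12:4378937-4414519 (plus strand). It stayed under the 1 FPKM filter, at 0.226 and 0.583 FPKM from 61 and 156 reads. The DAC library was the higher, with a ratio of 2.57 (1.90 to 3.52), which was 2.82 (2.09 to 3.86) over the median gene and 3.13 (2.31 to 4.28) per total read. The bounds from the authors' software, 0 to 0.672 and 0 to 1.25 FPKM, overlapped. CCND2 shares 999 exon bases with another protein-coding annotation of its own strand and 162 with CCND2-AS1.

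CDH13, T-cadherin, is a cadherin held to the membrane by a lipid anchor, without the tail that links other cadherins to catenins. It lies on chr16:82660570-83834245 (plus strand). It had 22 reads in untreated and 387 in DAC-treated MDA-MB-231 cells. On summed FPKM the ratio was 13.9, and on reads it was 17.7 (11.5 to 28.6), with 19.4 (12.6 to 31.3) over the median gene and 21.5 (14.0 to 34.8) per total read. By the FPKM ratio it ranked 322 of the 12525 symbols tested. The log2 change with 1 FPKM added was 2.07.

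The DAC reads of CDH13 were spread over 3 of its 6 transcripts. NM_001257, the long coding form, went from 0.00249 to 0.939 FPKM, and NM_001220488 went from 0 to 0.898 FPKM. NM_001220491, a form of 938 bases, went from 0.239 to 2.76 FPKM and held the largest share of the FPKM sum from 85.9 reads. NM_001220489 alone went the other way, from 0.0895 to 4.98e-05 FPKM. Each DAC bound began at 0, and the bounds of all 34 transcripts of the 10 genes overlapped between the libraries, so the gene-level reads are firmer than the split among transcripts. CDH13 shares 2354 exon bases with CDH13-AS2, on the opposite strand.

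**Figure D4:**
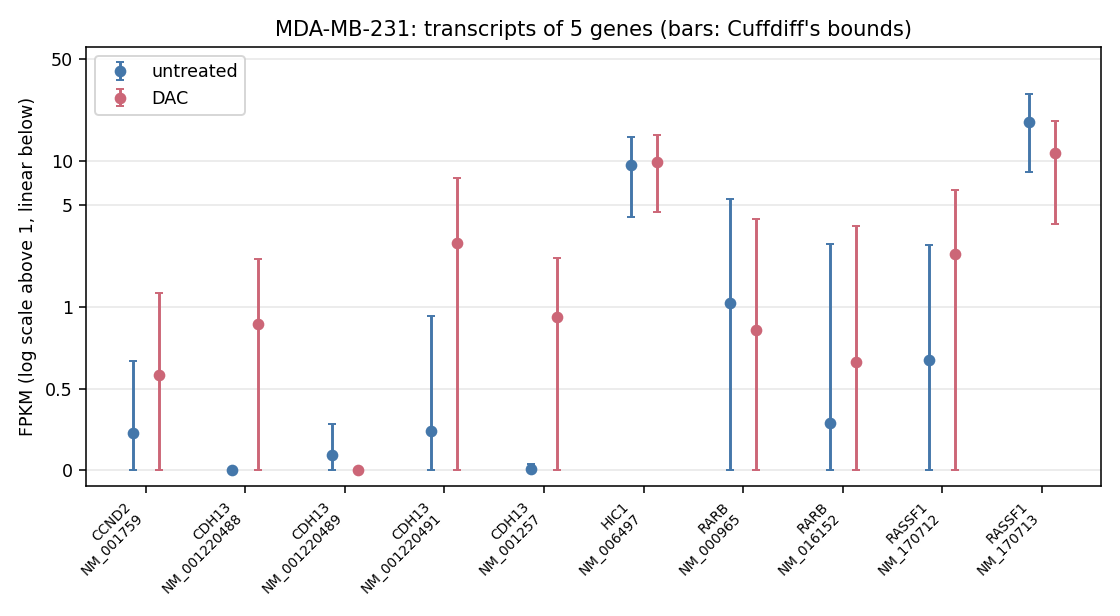
FPKM of 10 transcripts of CCND2, CDH13, HIC1, RARB and RASSF1 in untreated (blue) and DAC-treated (red) MDA-MB-231 cells, with the bounds given by the authors’ software as bars, on an axis that is logarithmic above 1 FPKM and linear below. RASSF1 variant C (NM_170713) is at 18.5 and 11.3 FPKM, 3 CDH13 transcripts stand at 0.898 to 2.76 FPKM after DAC, and every pair of bounds overlaps.

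In order of level in untreated cells the genes ran from GSTP1 through RASSF1, HIC1, RARB, CDH13 and CCND2 to the 4 at 0. After DAC, CDH13 stood above RARB and the rest of the expressed genes kept their places. The bounds of the leading transcripts of RASSF1 and HIC1 overlapped in both libraries, so these neighbours in the order did not differ beyond them. GSTP1 overlapped none of the others.

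On inferred reads, 8 of the 10 genes had 10 reads or more in at least 1 library. By that rule 4 were more than 2-fold higher after DAC (CCND2, CDH13, PGR and RUNX3), beside 2906 of 14857 symbols (19.6%), and 0 were lower, beside 618 (4.16%). PGR and RUNX3 passed the minimum only through the DAC library and so had to be higher. On the deposited scale the counting interval lay wholly above 1 for 5 genes, namely GSTP1, PGR, CCND2, RUNX3 and CDH13, and wholly below 1 for RASSF1. Over the median gene HIC1 and ESR1 also lay above 1, and per total read so did HIC1, ESR1 and RARB.

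**Figure D5:**
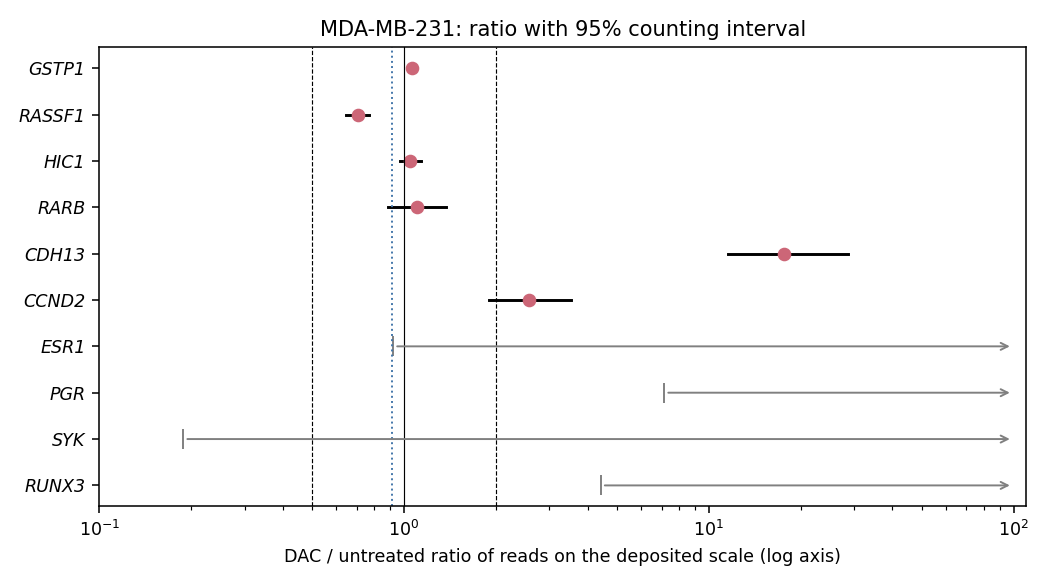
Ratio of DAC to untreated reads in MDA-MB-231 for the 10 genes on the deposited scale (log axis), with exact 95% counting intervals as black bars; grey arrows start at the lower bound for genes with 0 untreated reads, the solid line is 1, the dashed lines are 2-fold either way and the dotted line is the median ratio of 0.912. CDH13 lies farthest to the right of the genes with a ratio, at 17.7, and RASSF1 at 0.705 is below 1 and below the median.

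The same rule was applied to a wider list of genes reported as promoter-methylated in breast cancer. Of 40 such genes, 21 reached 1 FPKM in MDA-MB-231, of which 12 were higher and 1 (FHIT) was lower after DAC, beside 10.8% and 4.82% of all tested symbols. Of the 12 genes at 1 FPKM or more in untreated cells, 3 were higher, beside 4.29% of all such symbols, so most of the calls came from genes that passed the filter through DAC. The median log2 change of the 21 tested genes, which include those, was 1.11, beside -0.08 for the 12525 tested symbols. For HMLER, 12 of the 40 were listed, beside 7.85% of all symbols, and 7 were higher in both lines. No share of all symbols higher in both lines is given, so that count has nothing to be set against. CST6, a cysteine protease inhibitor, was at 0.405 and 16.5 FPKM in MDA-MB-231 and at 3.21 and 84.5 FPKM in HMLER. TFPI2, a serine protease inhibitor, was at 9.58 and 57.4 FPKM in MDA-MB-231 and at 3.34 and 35.4 FPKM in HMLER. BNC1 and TMEFF2 were also higher in both lines, at 0.117 and 3.41 FPKM and at 0.0146 and 2.37 FPKM in MDA-MB-231.

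The families and pathways of the 10 genes were read in the same way, and each count below stands beside the 10.8% of tested symbols that were higher and the 4.82% that were lower, and beside the 7.85% of symbols listed for HMLER. These lists are small, so 1 gene more or less moves a share widely. A tested gene under 1 FPKM in untreated cells passed the filter only through DAC, so it could be called higher but not lower. Among all symbols at 1 FPKM or more in untreated cells, 4.29% were higher. Of the RASSF family and its MST kinase partners, 2 of 11 tested genes were higher (RASSF5, at 1.39 and 5.59 FPKM, and RASSF2, at 0.743 and 1.54 FPKM), and STK3, an MST kinase, was lower at 16.3 and 8.13 FPKM. Of the 10 genes of this list at 1 FPKM or more in untreated cells, 1 was higher. The list's median log2 change was 0.09, and 0 of its 14 genes were listed for HMLER. Of the glutathione transferases, 2 of 12 were higher, GSTM4 at 14.9 and 32.6 FPKM and GSTO2 at 1.25 and 3.57 FPKM, with a median of 0.19 and 0 listed for HMLER. All 12 were at 1 FPKM or more in untreated cells. As for GSTP1 and RASSF1 themselves, most members of these families differed by less than 2-fold.

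Of the retinoid receptors, carriers, enzymes and targets, 2 of 8 tested genes were higher in MDA-MB-231 and 5 of 20 were listed for HMLER, with a median of 0.29. Of the 7 genes at 1 FPKM or more in untreated cells, 1 was higher. CRABP2, a cellular carrier of retinoic acid, was at 1.95 and 24.3 FPKM. RBP4, the plasma carrier of retinol, was at 0 and 1.69 FPKM and was also listed for HMLER, at 1.19 and 4.90 FPKM. TGM2, a transglutaminase induced by retinoic acid, was at 28.7 and 153.6 FPKM in HMLER and at 398 and 348 FPKM in MDA-MB-231. ALDH1A3, which makes retinoic acid, was at 2.65 and 9.75 FPKM in HMLER.

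Of the oestrogen receptor partners and targets, 2 of 8 tested genes were higher, MYB at 0.658 and 2.08 FPKM and GATA3 at 0.795 and 1.71 FPKM, and the median was 0.03. Both were under 1 FPKM in untreated cells. AREG, a ligand of the EGF receptor, and FOXA1, a pioneer factor of luminal cells, were the 2 listed for HMLER, AREG at 10.99 and 24.4 FPKM and FOXA1 at 0.533 and 1.13 FPKM. The list thus held 0 genes called in both lines, again without a share of all symbols.

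Of the cyclins, CDKs and CDK inhibitors of G1, 1 of 14 tested genes was higher and 1 lower in MDA-MB-231, with a median of -0.01. CDKN1A, the CDK inhibitor p21, was at 11.1 and 37.1 FPKM in MDA-MB-231 and at 82.6 and 475.6 FPKM in HMLER. RB1, the retinoblastoma protein that cyclin D kinases phosphorylate, was at 38.2 and 13.8 FPKM. CDKN2D and CDK2 were the other genes of the list in the HMLER table, at 12.0 and 24.8 FPKM and at 2.45 and 5.99 FPKM.

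Among the SYK and SRC family kinases and adaptors, SRC and LCK were higher and YES1 was lower by more than 2-fold. SRC was at 7.43 and 19.2 FPKM and YES1 at 199 and 59.1 FPKM, so kinases of 1 family lay on either side. LCK, known from T cells, was at 0 and 1.61 FPKM and so passed the filter only through DAC. Of the 6 genes of this list at 1 FPKM or more in untreated cells, 1 was higher. The blood cell markers PTPRC and CD3E were at 0.0247 FPKM or less in untreated and 0.119 FPKM or less in DAC-treated cells.

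Of the HIC1 partners and targets, 1 of 9 was higher, and the median was -0.48. The higher gene was LCN2, a secreted lipocalin, at 0 and 1.68 FPKM in MDA-MB-231 and at 0.342 and 13.1 FPKM in HMLER. LCN2 passed the filter only through DAC, and of the 8 genes at 1 FPKM or more in untreated cells 0 were higher. Of the RUNX family and partners, 0 of 8 were higher and RUNX2 was lower at 2.88 and 1.16 FPKM, with a median of -0.03. RUNX1 was at 14.2 and 15.9 FPKM in MDA-MB-231 and was listed for HMLER at 4.36 and 21.0 FPKM, with SMAD3 and TLE4 as the other 2 of 13 genes there. Of the cadherins, 4 of 22 were tested, 2 were higher and 1 lower, with a median of 0.56. Of the 3 cadherins at 1 FPKM or more in untreated cells, 1 was higher. CDH24 was at 8.63 and 20.01 FPKM, CDH2 (N-cadherin) at 0.0902 and 1.06 FPKM, and CDH4 (R-cadherin) was the lower one at 30.5 and 1.25 FPKM. CDH15 was the cadherin listed for HMLER, at 0.492 and 1.16 FPKM.

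MDA-MB-231 was checked against its markers, and HMLER could be read only for markers listed for it. In MDA-MB-231 the mesenchymal markers VIM, FN1, SPARC, ZEB1 and CD44 were all detected. VIM was at 3066 FPKM untreated and 1134 FPKM after DAC and ZEB1 at 31.1 and 15.2 FPKM, whereas FN1 was at 39.8 and 111.3 FPKM and SPARC at 2.09 and 11.3 FPKM, so these markers moved in both directions. Of the epithelial markers, CDH1 (E-cadherin) was at 0 and 0.179 FPKM, while EPCAM was at 7.90 and 9.78 FPKM and KRT18 at 173.5 and 164.1 FPKM. The basal markers KRT5, KRT14 and TP63 were at 0.0916 FPKM or less in both libraries. The endothelial markers PECAM1 and VWF were at 0.0110 FPKM or less in untreated cells and at 0.156 FPKM or less after DAC. These 4 blood and endothelial markers were thus all higher in the DAC library at very low levels, and the part of other cells in the results was not tested. Of the mammary epithelial markers, EPCAM, KRT5 and KRT14 were listed for HMLER, as was CD44, whereas CDH1 and TP63 were not. Being listed there shows a level more than 2-fold higher after DAC and is no check of what the cells are.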

How the data were processed

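RNA-seq libraries were prepared with the Illumina TruSeq RNA kit, which does not mark strand. Per the labels and the study's methods, reads were aligned with TopHat2 (hg19), and the authors deposited Cuffdiff FPKM values with bounds per RefSeq transcript. Versions and the library scaling are not given in the sources used here. Transcript length is another deposited column, which the authors took from RefSeq. Columns of fold changes, test statistics, p-values and q-values in these tables hold the authors' own comparisons and were not used.

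FPKM of the transcripts of a symbol were summed. A gene was called where the ratio of the MDA-MB-231 libraries exceeded 2 in either direction with 1 FPKM or more in at least 1 library. Log2 changes had a pseudocount of 1 FPKM, so a fold change on that scale understates low genes. What 1 read is worth was searched in low values (up to 8 reads) of single-transcript symbols over 600 bases, with 204 bases taken off each length. Of 1229 untreated and 1454 DAC values, 100% were whole within 0.1. Over symbols with several transcripts, 96.8% of low sums were whole in each library. HMLER values, merged over 2 libraries, gave no reads. No count test was run, since there is 1 library per condition. The steps were tested on simulated data.

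The members and lists were chosen with earlier results of these data known. Named genes are the 10 members and, from each list, at most 4 genes called in MDA-MB-231 or listed for HMLER, those higher in both first and then by log2 change. FHIT was named after its values were seen. Some genes of the lists are not reported here. Positions are GENCODE genes lifted to GRCh37, and promoters are RefSeq windows of GRCh38.p14. Alternatives were other filters, pseudocounts, scalings and ways to join transcripts. Python 3.11.15, pandas 2.3.3, numpy 2.4.6, scipy 1.17.1 and matplotlib 3.10.9 were used.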

Additional observations from a re-analysis of the deposited data

How the results depend on the processing

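The count of the 10 genes called higher in MDA-MB-231, which was 1, depends on the filter. It was 6 of 10 with no filter on low values (CCND2, CDH13, ESR1, PGR, RUNX3 and SYK), where SYK and ESR1 rest on 2 and 5 reads. The count was 0 of 4 where each library had to reach 1 FPKM, and 0 of 3 where 1 library had to reach 5 FPKM. It was 2 of 5 where any transcript could pass (CDH13 and RASSF1), and 4 of 8 on inferred reads with 10 or more in at least 1 library. The pseudocount in the ratio, division by the median ratio or by total inferred reads, the largest transcript and the status filter each left it at 1. The count listed for HMLER, which was 1, was 0 where each condition had to reach 1 FPKM. The counts of genes lower, and of genes higher in both lines, were 0 in every setting run. Over all symbols with no filter, 5193 (22.0%) of 23617 were higher and 1080 (4.57%) lower. With 1 FPKM in both libraries these were 494 (4.37%) and 466 (4.13%) of 11292, and with 5 FPKM 465 (4.95%) and 453 (4.82%) of 9398. With the pseudocount they were 863 (6.89%) and 410 (3.27%) of 12525, and with any transcript 2219 (17.9%) and 1554 (12.5%) of 12402. Inferred reads and total-read scaling were chosen after seeing the data. The log2 change of RARB turned its sign, from 0.10 to -0.15 with the largest transcript only, and those of the other genes kept theirs. With other pseudocounts that of CDH13 was up to 3.45 and that of HIC1 in HMLER up to 3.03.

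No paired analysis was possible because each line has 1 deposited value per condition, and no library was left out for the same reason. Depth limits ESR1 and SYK, which stayed at 5 reads or fewer.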

Other observations

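The protein-coding genes next to the 10 were also read. Of 20 such neighbours (1 on each side, GRCh37), 19 were found in the MDA-MB-231 table and 14 reached 1 FPKM. After DAC, 2 were more than 2-fold higher and 1 was lower, and 0 were listed for HMLER, beside 10.8%, 4.82% and 7.85% of symbols at large. The 2 higher ones, ZMYND10 and THRB, were under 1 FPKM in untreated cells and passed the filter only through DAC. ZMYND10, which is itself reported as methylated in breast cancer and lies 130 bases from RASSF1, was at 0.179 and 1.63 FPKM, from 12 and 108 reads. RASSF1 was lower in the same library and TUSC2, on its other side, was at 19.6 and 23.3 FPKM. THRB, a thyroid hormone receptor gene next to RARB, was at 0.929 and 2.45 FPKM, while TOP2B, 46 bases from RARB on the other side, was at 47.0 and 31.2 FPKM. CLIC4, a chloride channel protein gene next to RUNX3, was the lower one, at 125 and 52.2 FPKM. These neighbours were named after their values were seen.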
